A study of Mus musculus with 4 samples.

Results

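The genes described here are 10 interferon-induced antiviral effector genes, *Bst2*, *Rsad2*, *Mx1*, *Mx2*, *Trim30a*, *Parp14*, *Rtp4*, *Xaf1*, *Ifi27l2a* and *Ifi44*, out of 21904 genes with a symbol among 22206 transcript clusters measured. A transcript cluster is the set of probes that stands for a gene on the array, and each of these genes had 1 cluster of 10 probes. The set was chosen by readout: it was put together with the differences between genotypes already known, so the differences below are a description of these genes, and neither their size nor their number is evidence of an effect.

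RNA from whole salivary glands (parotid, sublingual and submandibular together) was hybridized to Affymetrix arrays, 1 array per mouse. The *Nfkbiz*-/- group was M47 and M49 and the *Nfkbiz*+/+ group M30 and M55, 2 mice each. All were 20 weeks old, and by the study's methods all were female and had been kept since weaning with mice of their own genotype. *Nfkbiz* encodes IκB-ζ, a nuclear protein of the IκB family that acts on NF-κB target genes, and the study asked how its loss alters the salivary gland. The deletion is in the germline and present in every cell type, and the methods give a mixed background other than the ICR in the label of M47, while no strain is given in the other labels.

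Type I interferons bind a receptor on almost every cell and activate the kinases JAK1 and TYK2, which phosphorylate STAT proteins. With IRF9 these form a complex that binds interferon-stimulated response elements (ISREs) in promoters and switches on a broad set of genes. Some of the induced proteins stop a virus at a given step, by holding particles at the cell surface, by blocking the viral polymerase or by trapping viral nucleoproteins, and others modify proteins or tune the response itself. Epithelial cells, fibroblasts and leukocytes can all make them, and salivary glands of people with Sjögren's syndrome are known for raised levels of interferon-induced transcripts.

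The RefSeq promoter table of GRCm38.p6 held an entry for 5 of the 10 genes, *Bst2*, *Rsad2*, *Trim30a*, *Ifi44* and *Xaf1*. The last 150 bases before the start site are shown for each because this is where an ISRE of an induced gene usually lies. Capitals mark matches to the core of the ISRE, taken as a GAAA, any 2 bases and another GAAA and searched on both strands. A match on the opposite strand therefore reads in capitals as TTTC, 2 bases and TTTC. The stretches lie at chr8:71537473-71537622 (*Bst2*), chr12:26456453-26456602 (*Rsad2*), chr7:104465194-104465343 (*Trim30a*) and chr3:151749911-151750060 (*Ifi44*), all on the minus strand, and at chr11:72301479-72301628 on the plus strand (*Xaf1*).
Bst2: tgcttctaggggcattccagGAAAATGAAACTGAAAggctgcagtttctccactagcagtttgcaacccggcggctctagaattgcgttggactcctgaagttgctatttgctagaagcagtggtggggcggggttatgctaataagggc
Rsad2: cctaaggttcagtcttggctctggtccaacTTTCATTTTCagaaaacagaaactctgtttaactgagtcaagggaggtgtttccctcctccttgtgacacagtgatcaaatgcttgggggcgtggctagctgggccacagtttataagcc
Trim30a: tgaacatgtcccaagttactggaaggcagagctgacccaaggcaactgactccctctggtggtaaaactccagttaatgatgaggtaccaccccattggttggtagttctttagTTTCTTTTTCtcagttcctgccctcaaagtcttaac
Ifi44: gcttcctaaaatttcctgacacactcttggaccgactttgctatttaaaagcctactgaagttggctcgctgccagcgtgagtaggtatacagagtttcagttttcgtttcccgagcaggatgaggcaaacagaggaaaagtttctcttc
Xaf1: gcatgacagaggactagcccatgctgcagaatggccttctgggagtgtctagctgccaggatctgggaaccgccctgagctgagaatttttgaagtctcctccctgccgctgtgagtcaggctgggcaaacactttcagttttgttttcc

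Within 250 bases before and 50 after the start, 3 of these 5 genes held the ISRE core, while 1131 of all 32851 promoters in the table did (3.44%). The first count is by gene, with a match in any of its promoters, and the second is by promoter. *Bst2* had 2 overlapping matches, at −130 to −121 and −124 to −115 counted from the start site, which together form the run of capitals printed above. *Rsad2* had 1 at −120 to −111 and *Trim30a* 1 at −36 to −27, both on the opposite strand, and a second *Trim30a* start in the table had the same letters at 3 to 12 bases downstream. No match was found for *Ifi44* and *Xaf1*, which says only that these letters are not in the window.

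The 9 genes other than *Mx1* were higher in *Nfkbiz*-/- than in *Nfkbiz*+/+ glands in each of the 4 pairings of the mice, as were 18.2% of all clusters. The median difference of all 10 was 1.23 on the log2 scale, beside −0.02 over all clusters. Expression is given as the authors' log2 value, so a difference of 1 is a doubling, and differences are *Nfkbiz*-/- minus *Nfkbiz*+/+ with the standard error (SE) from limma, fitted over all clusters. The thresholds used here were a fold change of 1.5 or more and, without adjustment, a p under 0.05, and by these 9 of the 10 were called higher, in a table where 2.93% of clusters were called higher and 3.69% lower. Since the genes were chosen on this contrast, nothing is read from that count. After Benjamini-Hochberg adjustment the limma p of the 10 genes lay between 0.301 and 0.679, and no cluster in the table had an adjusted p under 0.05, while 2015 had an unadjusted p under it. The t-tests described below gave the 10 genes adjusted p-values of 0.641 or more. With 2 mice per genotype, the smallest 2-sided exact permutation p for a single gene is 0.333.

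**Figure D1:**
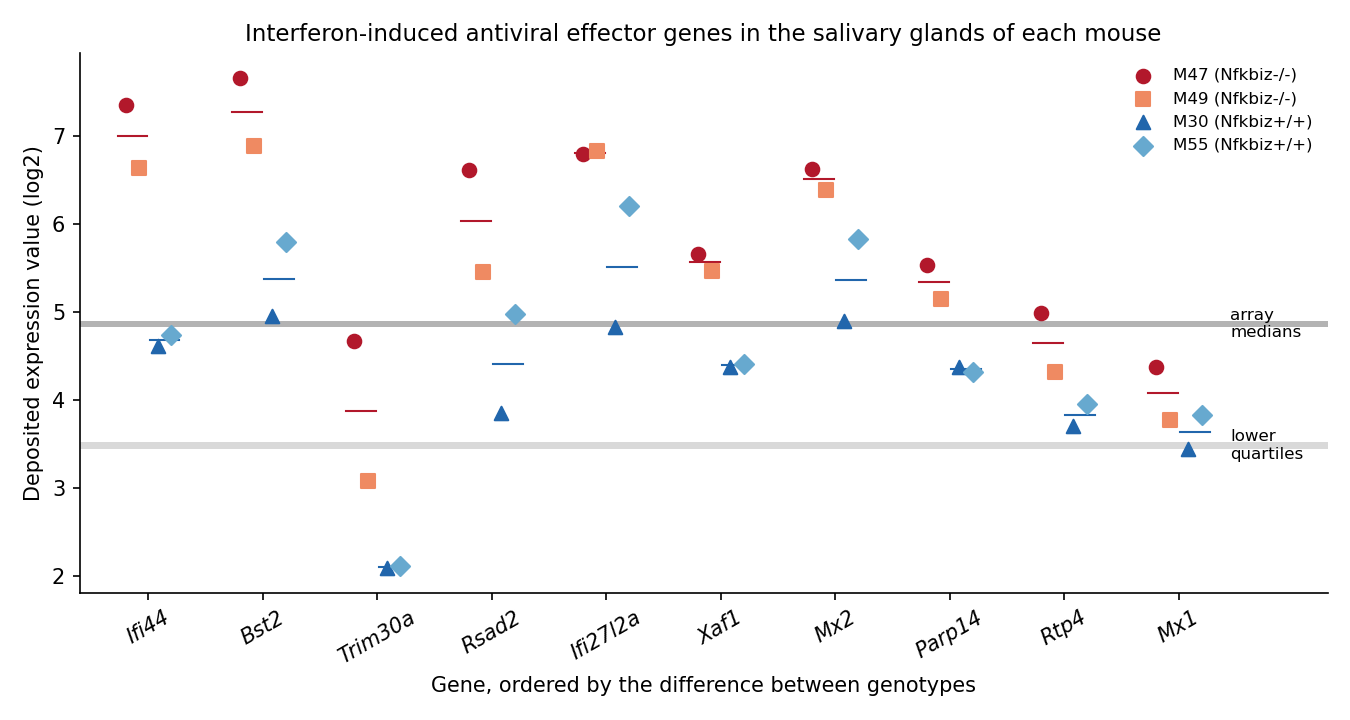
Deposited log2 value of each of the 10 genes (x axis) in each mouse (points), with short lines at the genotype means and grey bands over the medians and lower quartiles of the 4 arrays. Both *Nfkbiz*-/- values lie above both *Nfkbiz*+/+ values for 18.2% of all clusters and for every gene shown except *Mx1*, where M55 (3.83) lies above M49 (3.78). *Trim30a* lies below the lower quartiles in 3 mice.

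*Bst2* encodes tetherin, a membrane protein that holds budding virus particles at the cell surface. Its log2 value was 7.66 in M47 and 6.88 in M49, against 4.96 in M30 and 5.80 in M55, a 3.72-fold difference (1.89 on the log2 scale, SE 0.36). The lower *Nfkbiz*-/- mouse still stood 1.08 above the higher *Nfkbiz*+/+ mouse, and the mice of each genotype differed by a similar amount, 0.78 and 0.84. *Bst2* lies at chr8:71534256-71537437. It is also a surface marker of plasmacytoid dendritic cells in the mouse, whose other markers are given below.

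*Rsad2* encodes viperin, an enzyme of the endoplasmic reticulum and lipid droplets that makes a chain-terminating nucleotide used against viral RNA polymerases. Its values were 6.61 in M47 and 5.46 in M49, against 3.85 in M30 and 4.97 in M55, with a difference of 1.62 (SE 0.46). The genotypes were separated by 0.48, less than the gap of 1.16 between the *Nfkbiz*-/- mice or of 1.12 between the *Nfkbiz*+/+ mice. *Rsad2* (chr12:26442743-26456452) has *Cmpk2*, a mitochondrial nucleotide kinase, as its neighbor on the opposite strand 12.8 kb away. *Cmpk2* had 5.30 and 4.42 in *Nfkbiz*-/- and 3.53 and 3.99 in *Nfkbiz*+/+ mice, a difference of 1.10 (SE 0.32), with M47 the highest and M30 the lowest as for *Rsad2*. It was not called without M47 (0.66) or without M30 (0.87).

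*Mx1* and *Mx2* encode dynamin-like GTPases that act on viral nucleoproteins, in mice in the nucleus and the cytoplasm, respectively. *Mx2* had a log2 value of 6.63 in M47 and 6.38 in M49, and of 4.90 in M30 and 5.83 in M55, a difference of 1.14 (SE 0.32). Here the *Nfkbiz*-/- mice lay 0.25 apart and the *Nfkbiz*+/+ mice 0.93. *Mx1* had 4.37, 3.78, 3.44 and 3.83 in M47, M49, M30 and M55, a difference of 0.44 (SE 0.27) that did not pass the thresholds (limma, unadjusted p = 0.144). It was the member whose genotypes overlapped, and all 4 of its values were below the median of their array, that of M30 below the lower quartile. The genes lie 73.2 kb apart on opposite strands, *Mx1* at chr16:97447035-97462907 and *Mx2* at chr16:97536081-97560901. The RefSeq table, which follows C57BL/6J, lists both as transcribed pseudogenes, and common laboratory strains carry defective *Mx* alleles. The array reads their RNA, not a working protein, and probes shared between the 2 copies would mix their signals.

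*Trim30a* encodes a mouse TRIM protein known to dampen Toll-like receptor signaling to NF-κB. Its values were 4.68 in M47 and 3.08 in M49, against 2.09 in M30 and 2.11 in M55, a difference of 1.78 (SE 0.46). The *Nfkbiz*-/- mice differed from each other by 1.59, the widest gap within a genotype among the 10 genes, while the *Nfkbiz*+/+ mice differed by 0.02. M49, M30 and M55 were below the lower quartile of their arrays. The gene (chr7:104409025-104465193) sits in a cluster of near copies on the same strand. *Trim30b*, *Trim30c* and *Trim30d*, 4.82 to 39.1 kb away, had differences of −0.19, −0.21 and −0.11. *Trim30c* and *Trim30d* were below the lower quartile of all 4 arrays and *Trim30b* of 2. How far the probes tell these copies apart is not known.

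*Parp14* encodes a mono-ADP-ribosyltransferase that modifies proteins in interferon and cytokine responses. Its log2 values were 5.54 and 5.15 in *Nfkbiz*-/- and 4.38 and 4.32 in *Nfkbiz*+/+ mice, a difference of 0.99 (SE 0.22), and the genotypes were separated by 0.77. It lies at chr16:35832874-35871544, and 66.9 kb away is *Parp9*, whose product works with the ubiquitin ligase DTX3L. *Parp9* had 5.96, 5.60, 5.30 and 4.42 in M47, M49, M30 and M55, a difference of 0.92 (SE 0.31), and *Dtx3l*, which lies between them, one of 0.23 (SE 0.23) with overlapping genotypes. *Parp9* was not called without M47 (0.74) or without M55 (0.48).

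*Rtp4* encodes a chaperone of receptor trafficking in the Golgi that also restricts flaviviruses. It was at 4.99 in M47 and 4.31 in M49, against 3.70 in M30 and 3.95 in M55, a difference of 0.82 (SE 0.27). *Xaf1*, whose product binds the inhibitor of apoptosis XIAP and relieves its block on caspases, had 5.66 and 5.47 against 4.38 and 4.41, a difference of 1.17 (SE 0.20). Mice of a genotype stood close together for *Xaf1*, 0.18 apart in *Nfkbiz*-/- and 0.03 in *Nfkbiz*+/+ mice, and the genotypes were 1.06 apart. *Rtp4* lies at chr16:23609919-23614222 and *Xaf1* at chr11:72301629-72313733.

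*Ifi27l2a* encodes a small hydrophobic protein of the ISG12 family. Its values were 6.79 and 6.83 in *Nfkbiz*-/- mice, nearly the same, and 4.83 and 6.20 in *Nfkbiz*+/+ mice, a difference of 1.29 (SE 0.41). The 2 *Nfkbiz*+/+ mice were 1.37 apart, more than the genotypes. The gene lies at chr12:103433873-103443680 beside its relatives. *Ifi27l2b*, 7.22 kb away, had a difference of 0.34 (SE 0.24; called without M55, at 0.60), and *Ifi27*, on the opposite strand with an annotated span that overlaps that of *Ifi27l2a* by 6.06 kb, one of −0.32 (SE 0.29).

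*Ifi44* encodes a cytoplasmic protein strongly induced by type I interferon, and it had the widest difference of the 10. It was at 7.35 in M47 and 6.63 in M49, against 4.61 in M30 and 4.74 in M55, a 4.98-fold difference (2.32, SE 0.27) with an adjusted limma p of 0.301. The genotypes were separated by 1.89, more than the distance of 0.72 between the *Nfkbiz*-/- mice. Its neighbor *Ifi44l*, 8.78 kb away on the same strand, had 3.33 and 3.28 against 3.44 and 3.83, a difference of −0.33 (SE 0.22). *Ifi44l* was below the lower quartile in 3 mice. *Ifi44* lies at chr3:151730922-151749959.

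The order of the mice was M47, M49, M55 and M30 for 7 of the 10 genes. M47 was highest for 9 of the 10 genes (M49 for *Ifi27l2a*) and M30 lowest for 9 (M55 for *Parp14*), and the mean over the 10 was 6.03 in M47, 5.40 in M49, 4.62 in M55 and 4.11 in M30. The median gap between M47 and M49 was 0.63 over the 10 genes and 0.21 over all clusters, and that between M55 and M30 was 0.32 and 0.27. The difference between genotypes exceeded both gaps within a genotype for 8 genes, the exceptions being *Ifi27l2a* and *Mx1*. Both mice of 1 genotype lay above both of the other, in the direction of higher in *Nfkbiz*-/-, for 9 of the 10 genes and for 18.2% of all clusters.

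**Figure D2:**
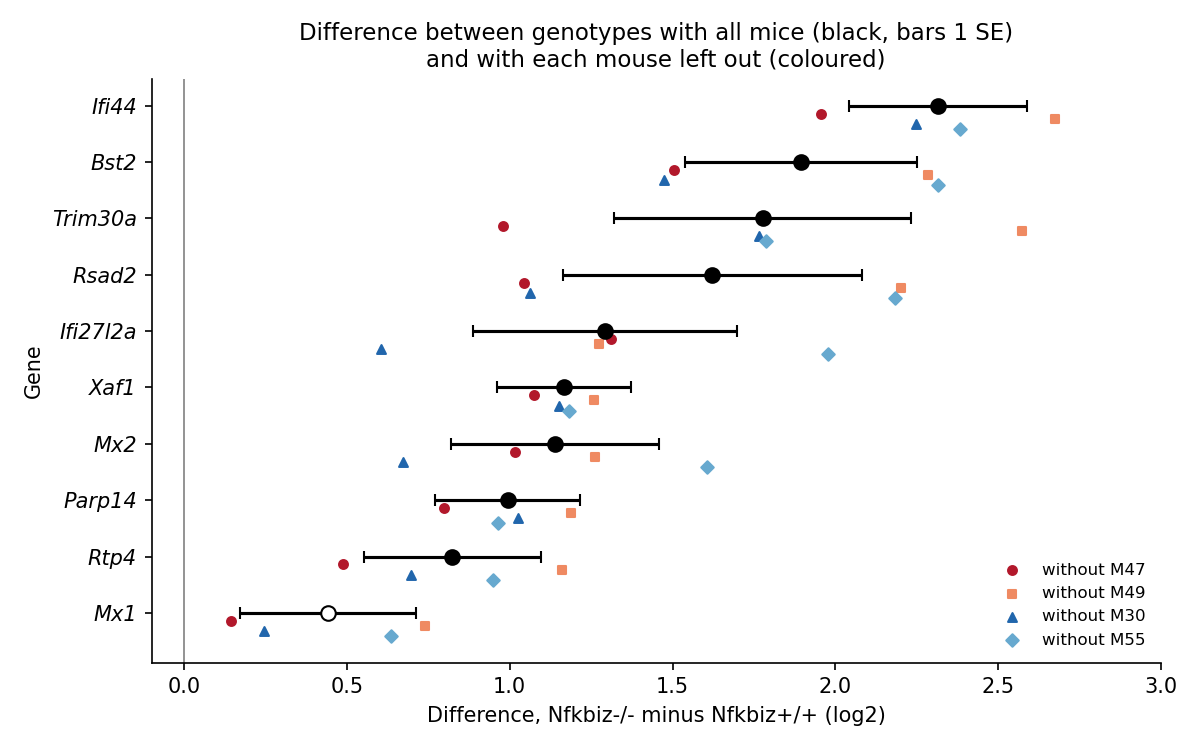
Difference between genotypes in log2 units (x axis) for each gene, with all 4 mice (black, bars 1 SE from limma, open where not past both thresholds) and with 1 mouse left out (coloured). All differences stay above 0, from 0.14 for *Mx1* without M47 to 2.68 for *Ifi44* without M49.

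*Ifi44*, *Bst2*, *Xaf1* and *Parp14* moved by less than 1.5 times when any mouse was left out. Without M47 the difference of *Trim30a* was 0.98, that of *Rsad2* 1.04 and that of *Rtp4* 0.49, and *Rtp4* was no longer called. Without M30 that of *Ifi27l2a* was 0.61, that of *Mx2* 0.67 and that of *Rsad2* 1.06, and *Rsad2* and *Rtp4* (0.70) were not called. Without M55 *Ifi27l2a* stood at 1.98. Of the 10 genes, 8 were called when M47 was left out (2.31% of all clusters higher) and 9 when M49 was (2.67%). Leaving out M30 gave 7 (4.97%) and leaving out M55 gave 9 (4.61%). The independent t-test named in the study's methods, at the same thresholds, called *Ifi44*, *Xaf1* and *Parp14* with equal variances (1.02% of clusters higher) and *Xaf1* with unequal variances (0.482%).

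Of the 10 genes, 4 lie on chromosome 16, which also carries *Nfkbiz* (chr16:55811375-55838899) and holds 3.04% of the clusters. *Parp14* is 20.0 Mb from *Nfkbiz*, *Rtp4* 32.2 Mb, *Mx1* 41.6 Mb and *Mx2* 41.7 Mb. Of the 674 clusters on chromosome 16, 32 were called higher (4.75%). A part of strain-derived sequence around the targeted locus in these values was not tested. *Nfkbiz* itself read 6.18 and 5.78 in the *Nfkbiz*-/- mice and 5.04 and 7.29 in the *Nfkbiz*+/+ mice. Where its probes lie relative to the deleted part is not known, and the values are no check of the labels.

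Of 20 measured genes of the same families, or next to them on the chromosome, 3 were called higher, *Cmpk2*, *Parp9* and *Trim34b* (1.01, SE 0.33, and not called without M47 or M55), and none lower, with a median difference of 0.22. The 4 others with the highest mean were *Ifi27*, *Parp10* (0.52, SE 0.24), *Parp12* (0.64, SE 0.30) and *Dtx3l*, of which *Parp10* (0.77) and *Parp12* (1.09) were called without M49. *Ifi44l*, *Ifi27l2b* and the *Trim30* copies are named above after their values had been seen.

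**Figure D3:**
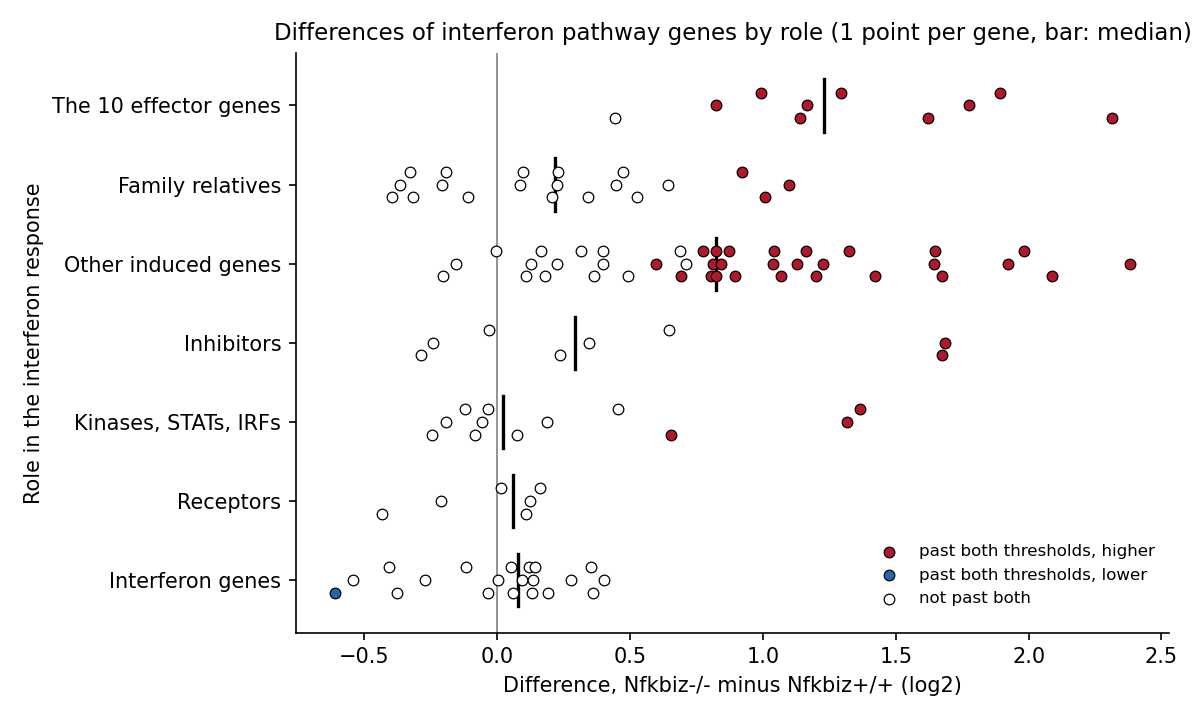
Difference between genotypes in log2 units (x axis) for genes of the interferon response by role (y axis), 1 point per gene, filled where past both thresholds, with a bar at each median. The medians are 1.23 for the 10 effector genes, 0.82 for other induced genes and 0.06 for the receptors.

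Along the pathway, no gene that encodes an interferon or an interferon receptor was called higher with all 4 mice. Of the 20 interferon genes measured, 7 were below the lower quartile in all 4 mice. *Ifnz* and *Ifna14*, named after their values had been seen, had differences of 0.40 and 0.35. They stood at 0.78 and 0.73 without M30 and at 0.03 and −0.02 without M55. Of 20 interferon genes 1 was called lower, *Ifna13* (−0.61, SE 0.25), which was below the lower quartile in 3 mice and was not called without M47 (−0.59), M49 (−0.63) or M30 (−0.33). The others with the highest means, *Ifna5* (−0.27), *Ifnl3* (0.06), *Ifna9* (−0.54) and *Ifnl2* (0.05), did not pass, though *Ifna5* (−0.64) and *Ifna9* (−0.59) were called lower without M55. *Ifnb1*, encoding interferon-β, had 5.02, 5.19, 4.99 and 4.98 in M47, M49, M30 and M55, and *Ifng*, encoding interferon-γ, 3.18, 3.05, 2.86 and 3.10, below the lower quartile of each array. None of the 6 receptor genes was called, with *Il10rb* at 0.01, *Ifngr1* at 0.11 and *Ifngr2* at −0.44, and *Ifngr2* was called lower without M30 (−0.89) and stood at 0.02 without M55. The subunits of the type I receptor, *Ifnar1* and *Ifnar2*, had differences of −0.21 (SE 0.24) and 0.16 (SE 0.20). *Ifnb1*, *Ifng*, *Ifnar1* and, below, *Isg15*, *Adgre1* and *Siglech* are named for their roles, after their values had been seen.

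Of 12 genes of signal transduction 3 were called higher. *Stat2* had 7.80 and 7.71 against 6.28 and 6.59 (1.32, SE 0.22) and *Irf9* 6.92 and 6.65 against 6.08 and 6.19 (0.65, SE 0.21). *Irf7*, the factor that amplifies interferon production, had a difference of 1.37 (SE 0.39). Without M47 neither *Irf9* (0.52) nor *Irf7* (0.86) was called, and *Irf7* was not called without M55 (0.94). *Stat3* (0.19), *Irf1* (−0.03), *Irf2* (−0.06) and *Tyk2* (0.46) did not pass. *Irf1* was at 6.21 in M30 and 8.30 in M55, so that its difference was −1.08 and called lower without M30, and 1.01 and called higher without M55. *Tyk2* was called without M49 (0.76). Of 8 genes listed under negative regulation, *Usp18* (1.67, SE 0.27) and *Nlrc5* (1.69, SE 0.29) were called higher. The product of *Usp18* removes ISG15 and blocks the type I receptor, and *Nlrc5* is also known as an activator of MHC class I genes. *Isg15* was counted in this list and not among the other induced genes below. It was not called with all 4 mice (0.65, SE 0.28) and stood at 0.87 without M49 and 0.94 without M30. *Ptpn2* (0.35), *Socs3* (−0.03), *Ptpn6* (−0.24) and *Pias1* (0.24) did not pass, though *Ptpn2* did without M55 (0.75).

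Of 41 other interferon-induced genes measured, 26 were called higher and none lower, with a median difference of 0.82. The list was assembled, like the 10 genes, with results of these arrays known, so its count is a description too. It ran from *Ifit3b* (2.38, SE 0.43), *Ifit3* (2.09, SE 0.41), *Oas2* (1.98, SE 0.58) and *Oas1a* (1.92, SE 0.21) through *Oasl2*, *Ifitm3*, *Lgals3bp*, *Gbp2*, *Rnf213*, *Eif2ak2*, *Irgm1*, *Gbp7*, *Gbp3*, *Samd9l*, *Slfn8*, *Herc6*, *Ddx58*, *Ifit1*, *Ifih1*, *Oas1g*, *Phf11d*, *Adar*, *Dhx58*, *Ifit2*, *Oas1b* and *Ifi204* (1.67 to 0.60) to genes such as *Ifitm2* (0.13), *Ifi47* (0.00), *Sp100* (0.16) and *Isg20* (−0.20), which did not pass. Without M47, 15 of the 41 were called, and *Oas2* was not called without M55 (1.46). In these genes, too, M47 had the highest mean (6.35) and M49 the next (5.87), while M30 (5.29) and M55 (5.18) were in the reverse order of the 10 effector genes.

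The 10 genes outside the set whose values over the 4 mice, each centred on its own mean, lay nearest to the mean profile of the set (M47 0.99, M49 0.36, M55 −0.42 and M30 −0.93) were, in order of Euclidean distance, *Procr*, *H2-Q4*, *Gm4070*, *Spi1*, *B2m*, *9930111J21Rik2*, *Lrp8*, *Cmpk2*, *Herc6* and *Ms4a6c*, at 0.15 to 0.31 log2 units. The 10 effector genes themselves lay at 0.46 (*Mx2*) to 1.01 (*Ifi44*) from it. *B2m*, the invariant chain of MHC class I molecules, had 11.92 and 11.14 in the *Nfkbiz*-/- mice and 9.89 and 10.11 in the *Nfkbiz*+/+ mice. *Spi1*, encoding the myeloid transcription factor PU.1, had 7.20, 6.87, 5.35 and 5.73, and *Procr*, the protein C receptor, 4.95, 4.44, 3.13 and 3.47. All of these had the order M47, M49, M55 and M30. With 4 points per gene the measure orders genes and no more.

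The glands carried their defining markers, with a mean log2 value of 10.1 to 10.3 over 17 acinar and ductal genes in each mouse, of which *Ren1* and *Egf* were called higher and *Dcpp2* and *Dcpp3* lower, none of them without M47 or without M49, and neither *Ren1* nor *Egf* without M30. Single gland genes could still differ, as *Amy1*, named after its values had been seen, was at 10.93 in M55. It was at 12.87 in M47, 12.92 in M49 and 12.94 in M30. Markers of cell types that can hold the 10 transcripts are given next, and not all of them followed the order of the 10 genes. In bulk tissue fewer cells of a type and less RNA per cell cannot be told apart. Of 18 macrophage and dendritic cell markers 4 were called higher, *Cd68* (1.13), *C1qa* (0.96), *Mrc1* (0.82) and *Itgam* (0.78), and none lower, and their mean was 5.09 in M47 and 4.88 in M49, against 4.78 in M55 and 4.49 in M30, the order of the 10 genes. *Adgre1*, encoding F4/80, had a difference of −0.47 (SE 0.28) and was called lower without M30 (−0.75). *Cd68* was not called without M47 (0.93) or M30 (0.47), nor *Itgam* without M47 (0.58) or M55 (0.53). Of 8 markers of plasmacytoid dendritic cells other than *Bst2*, *Tcf4* was called higher (0.60) and not without M47 or M49, and the means were 5.18 to 5.37 in *Nfkbiz*-/- and 5.09 to 5.19 in *Nfkbiz*+/+ mice. *Siglech*, specific to these cells, had 4.13 and 4.23 against 4.51 and 4.27. Below the lower quartile in all 4 mice were the dendritic cell markers *Xcr1*, *Clec9a* and *Flt3* and the plasmacytoid markers *Pacsin1* and *Ccr9*.

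None of 15 T and NK cell markers or 10 B cell markers was called with all 4 mice. Their means were 4.39 to 4.75 against 4.21 to 4.40 and 3.69 to 4.16 against 3.48 to 3.79. M47 had the highest mean of both lists (4.75 and 4.16), and M49 (4.39 and 3.69) lay within the range of the *Nfkbiz*+/+ mice. Differences of *Cd79a*, *Cr2*, *Ms4a1* and *Blk* were 1.44, 1.10, 0.89 and 0.77 without M49, and 0.05, −0.04, 0.16 and −0.14 without M47. *Cd3e*, *Cd3g* and *Prf1* stood at 3.46, 0.87 and 0.94 without M49. *Cd5*, *Klrb1c*, *Ncr1*, *Lck*, *Nkg7*, *Cd8b1*, *Fcer2a* and *Cd79b* were then below 0. These genes are named after their values were seen. Of 9 plasma cell markers only *Jchain* was called higher (2.88, SE 0.23). The means over the 9, *Jchain* included, were 5.24 and 5.23 in *Nfkbiz*-/- mice against 4.90 and 4.96. Their median difference was −0.08, and 4 of the 9 had a difference above 0. None of 9 neutrophil, 8 endothelial and 8 fibroblast markers was called. Of 6 red blood cell markers the globin genes *Hbb-bs*, *Hbb-bt*, *Hba-a1* and *Hba-a2* were called lower, and the mean over the 6 was 5.58 in M47, 6.76 in M49, 8.33 in M55 and 8.78 in M30, the reverse of the order of the 10 genes. Fat and skeletal muscle markers were high in M55 alone, at 6.29 against 3.74 to 4.12 and at 5.41 against 3.42 to 3.65, and 3 of 8 fat markers (*Fabp4*, *Car3* and *Cfd*) and 4 of 8 muscle markers (*Myh8*, *Mylpf*, *Myh1* and *Tnnt3*) were called lower, of which only *Car3* and *Myh8* were still called without M55 or without M49, and only *Myh8* without M47. The part of any of these cell types in the values of the 10 genes was not tested.

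**Figure D4:**
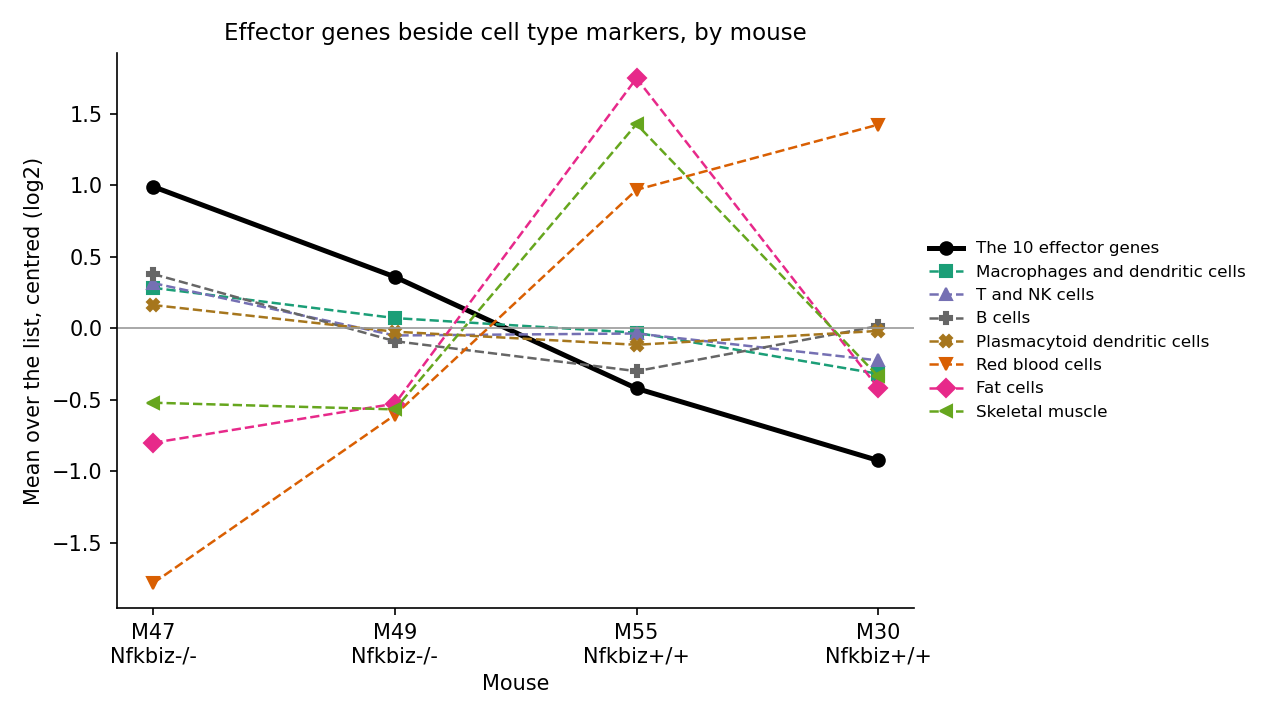
Mean log2 value over the 10 effector genes (solid line) and over lists of cell type markers (dashed lines), each centred on its mean over the 4 mice (y axis), with the mice placed in the order of the effector genes. Macrophage and dendritic cell markers share that order over a narrower range, red blood cell markers run the opposite way, and fat and muscle markers stand out in M55.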

How the data were processed

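Total RNA of 4 salivary gland samples was measured on Affymetrix whole-transcript arrays. The authors corrected background, normalized by quantiles and summarized probes by RMA, and deposited log2 values, used here unchanged. The 2 deposited tables of these values were identical. Columns and tables of the authors' own comparisons (fold changes, p-values, GO and KEGG counts) were not used.

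Groups came from the labels. With limma 3.58.1 in R 4.3.3, all 22206 clusters were fitted together (2 residual and 5.53 prior degrees of freedom) with Benjamini-Hochberg adjustment. The functions were tested on simulated data. Alternatives (t-tests, other normalizations, filters and thresholds, and leaving out each mouse) are given in the closing section. A gene was represented by its cluster with the highest mean. Arrays have no read depth, so their number limits the precision.

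The 10 genes and all lists were chosen with earlier results of these data known. Named genes were the 10 genes, *Nfkbiz*, called genes of the lists, up to 4 further genes with the highest mean of each pathway list, and the 10 nearest profiles. *Ifi205*, *Ifna15*, *Ifi27l1*, *Trim34a*, *Parp13* (measured as *Zc3hav1*), *Muc10*, *Muc19*, *Dcpp1* and *Trac* were not matched by symbol. Promoters are from RefSeq (GRCm38.p6), whose gene positions overlapped those of the deposited annotation for all 10 genes. A planned signaling gene and a planned motif are not reported here.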

Additional observations from a re-analysis of the deposited data

How the results depend on the processing

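All 10 effector genes kept a positive difference under every alternative tried: quantile normalization, median-centred arrays, the second table of values and fits without 1 of the mice. The second table was identical to the first, so its values could not change, and median-centring added the same amount to every difference. Only fits without a mouse moved a gene across the thresholds. These were *Rsad2* without M30 (1.06) and *Rtp4* without M47 (0.49) and without M30 (0.70). The median difference of 1.23 ranged from 1.03 to 1.70 when a mouse was left out. The 9 calls became 3 and 1 with the t-tests of equal and unequal variances, 7 with a 2-fold threshold and 7 to 9 without a mouse, and stayed at 9 with an intensity trend, both normalizations and 1 cluster per gene. With brighter clusters only, the 6 genes left were all called. That filter used the mean over all 4 mice, so high *Nfkbiz*-/- values helped a gene to pass it. *Ifi44* and *Xaf1*, for example, were below the array median in both *Nfkbiz*+/+ mice, and nothing is read from this count. The 26 calls among other induced genes became 4 and 2 with the t-tests, 16 with the 2-fold threshold and 15 to 26 without a mouse. The 3 among family relatives became 0 with either t-test, 1 of 7 with brighter clusters only and 0 to 5 without a mouse. A t-test on 2 mice per group has fewer degrees of freedom than limma, which also pools the spread over clusters. Why the counts changed between alternatives was not tested. For signaling genes (3 called) and inhibitors (2), the same alternatives were added after the data were seen. Signaling genes ranged from 0 with the unequal-variance t-test, through 1 without M47, to 4 without M49. Inhibitors were at 1 with either t-test and at 3 with both normalizations, 1 cluster per gene, and without M49, M30 or M55. Without M30, 2 interferon genes were called higher. Averaging over clusters was not run, since each of the 10 genes had 1 cluster. No paired analysis was possible because the mice share no replicate numbers.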

Other observations

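The ISRE core (GAAA, 2 bases, GAAA) was also counted in the promoters of the other lists, as a description with no test. It occurred in 19 of 35 other interferon-induced genes with a RefSeq promoter, beside 3.44% of all promoters, a share counted by entry and not by gene. Among the 19 were *Ifit1*, *Ifit3*, *Oas1a*, *Eif2ak2*, *Ifih1*, *Ifitm3* and *Gbp2*, which were called higher. Also among them were *Igtp* (0.69), *Oas3* (0.49), *Ifitm2* (0.13) and *Slfn5* (−0.15), which were not called. It occurred in 6 of 16 family relatives, *Trim30d*, *Trim12a*, *Trim12c*, *Trim5*, *Trim34a* and *Parp11*. The core lay in the promoters of *Bst2*, *Trim30a* and *Rsad2*, whose differences were 1.89, 1.78 and 1.62. It also lay in those of *Trim30d* and *Parp11*, whose differences were −0.11 and −0.37. *Trim30d* was below the lower quartile of all 4 arrays. No match was found in the entries for *Ifi44* and *Xaf1*, whose differences were 2.32 and 1.17.

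*Cd3e*, a subunit of the T cell receptor complex, was named after its values had been seen. It read 10.25 and 7.28 in the *Nfkbiz*-/- mice and 4.65 and 8.92 in the *Nfkbiz*+/+ mice, a range far wider than that of the other subunits *Cd3g* (3.33 to 4.51) and *Cd3d* (3.33 to 3.67), and its order of the mice is not that of the effector genes.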
